A study of Mus musculus with 6 samples.

Results

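Rab GTPases, the small G proteins of vesicle traffic, were followed on whole-genome arrays of monocytes and macrophages from mouse bone marrow, with and without human leukaemic B cells in the animal. The members are all probes whose annotated symbol is Rab and a number from 1 to 44, with or without 1 letter. Names that continue with if, fip, gap or ip after the number were left out, and so were Rab3il1 and Rab26os, which encode an interactor and a non-coding transcript. This gave 112 probes of 59 genes, among 45281 probes on the array. All 6 mice were BALB/c Rag2-/-γc-/- animals aged 11 weeks, a strain that lacks mature B, T and NK cells of its own. The 3 control mice (A, B and C) received no treatment. The 3 MEC1 mice (D, E and F) had an intravenous injection of MEC1, an established human line of chronic lymphocytic leukaemia B cells, and the label of both groups names day 21. Cells had been selected with magnetic beads, and the RNA of each mouse went onto 1 array. The study's design text places the sacrifice early in the leukaemia, with controls of the same age. The marker used for the magnetic selection is not given in the sources used here.

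A Rab protein is anchored in a membrane by a lipid tail and switches between a GDP-bound and a GTP-bound form. Exchange factors load GTP, GTPase-activating proteins end the signal, and the GTP-bound form recruits effectors such as tethers and motor adaptors that carry and dock vesicles. Each compartment has its own set, so that Rab1 serves transport from the endoplasmic reticulum to the Golgi, Rab5 early endosomes, Rab11 recycling and Rab7 late endosomes and lysosomes. Macrophages use Rab5 and then Rab7 as a phagosome matures, and granule-forming myeloid cells use Rab27a for secretion. An array measures the mRNA of these switches and not how much of the protein is in its active form.

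The promoter windows of 3 members are shown because they mark the ends of the results. Rab33b is the member that passed the test, Rab4b had the largest mean difference upward among probes whose groups did not overlap, and Rab24 had 2 probes at which each MEC1 mouse lay above each control mouse. Each window is RefSeq sequence of build GRCm38.p6, from 250 bases before to 50 bases after the annotated start, read 5′ to 3′ on the strand of the gene. Capitals mark the letters of 4 motifs, searched on both strands: the E-box CACGTG, the GC box GGGCGG or CCGCCC, the CCAAT box CCAAT or ATTGG, and the TATA box TATAAA or TTTATA. Rab33b lies at chr3:51483716-51484015 on the plus strand, Rab4b at chr7:27178834-27179133 on the minus strand and Rab24 at chr13:55321931-55322230 on the minus strand.
Rab33b: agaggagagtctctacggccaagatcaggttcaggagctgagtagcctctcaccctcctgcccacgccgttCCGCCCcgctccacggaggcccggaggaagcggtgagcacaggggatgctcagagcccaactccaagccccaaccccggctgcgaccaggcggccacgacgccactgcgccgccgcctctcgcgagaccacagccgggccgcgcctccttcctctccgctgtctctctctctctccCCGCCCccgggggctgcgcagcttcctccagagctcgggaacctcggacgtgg
Rab4b: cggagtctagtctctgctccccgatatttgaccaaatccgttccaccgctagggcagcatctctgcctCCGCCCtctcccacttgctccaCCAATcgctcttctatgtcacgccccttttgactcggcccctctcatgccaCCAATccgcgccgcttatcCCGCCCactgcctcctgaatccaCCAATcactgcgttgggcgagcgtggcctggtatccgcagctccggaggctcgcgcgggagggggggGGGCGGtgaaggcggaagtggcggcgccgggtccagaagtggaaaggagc
Rab24: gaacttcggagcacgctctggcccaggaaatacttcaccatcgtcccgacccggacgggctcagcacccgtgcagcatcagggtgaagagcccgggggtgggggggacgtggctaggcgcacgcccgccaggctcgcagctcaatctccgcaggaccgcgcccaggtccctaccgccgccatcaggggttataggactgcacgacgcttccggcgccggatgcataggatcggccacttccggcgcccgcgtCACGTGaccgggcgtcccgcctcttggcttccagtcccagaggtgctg

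The Rab33b window held 2 GC boxes and none of the other 3 motifs. The Rab4b window held 3 GC boxes and 3 CCAAT boxes, and the Rab24 window held 1 E-box, the core of the element bound by the lysosomal regulator TFEB. Of 32851 promoter windows of the same length, 35.7% held a GC box, 37.4% a CCAAT box, 7.15% an E-box and 13.6% a TATA box. Windows were at hand for 48 of the 59 Rab genes, 60 windows in all, of which 68.3% held a GC box, 43.3% a CCAAT box, 10% an E-box and 6.67% a TATA box. Rab20, Rab21, Rab23, Rab24, Rab27a and Rab5a were the 6 genes with an E-box. A match describes letters in the window and was not tied to any value below.

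Between 15545 and 16976 of all probes were detected on an array, which means a detection p-value under 0.05 against the negative controls of that array. Before normalization the median intensity was 130.7, 114.1 and 115.1 on control arrays A to C. It was lower on each MEC1 array, at 86.3, 70.7 and 87.6 for D to F, and the cause was not tested. Over the tested probes, Pearson's r between control arrays was 0.98 to 0.99 and that between MEC1 arrays 0.92 to 0.97. Of 7 markers of monocytes and macrophages, 6 were detected on all arrays of each group. The exception was Mertk, a receptor gene for uptake of dying cells, which was detected on 0 control arrays and 1 MEC1 array. Among the markers of all lists, only Fcgr1, an Fc receptor gene, passed the test. Its log2 difference, MEC1 minus control, was 1.77 (adjusted p = 0.017). Csf1r was also higher, at 0.25, while Adgre1, Itgam, Cd14 and Ly6c1 were lower, at -0.69, -0.46, -0.27 and -0.06. Groups overlapped at each of these but Ly6c1. The median difference of the 6 tested monocyte and macrophage markers was -0.17. Summed over the 7 markers, normalized intensity was 26404 to 28172 in control mice and 24105 to 27518 in MEC1 mice. Other marrow cells were also represented. The summed intensity of 8 neutrophil markers was 80910 to 94771 and 90048 to 93320, that of 4 eosinophil markers 35392 to 40425 and 40059 to 45993, and that of 6 mast cell and basophil markers 13475 to 17715 and 12637 to 14171. Most of the eosinophil sum was Prg2, at log2 means of 15.17 and 15.29. The sum over 6 erythroid markers was 69473 to 86904 in control mice and 33389 to 60791 in MEC1 mice, so that the sums did not overlap. Taken singly, groups overlapped at Alas2, Car2, Epor and Klf1 and not at Hba-a1 and Slc4a1. Hba-a1, the brightest of the 6, had the same value of 15.47 on all 3 control arrays, and none of the 6 passed the test. The sum over 6 endothelial and stromal markers was 508 to 596 in control mice and 637 to 694 in MEC1 mice, though groups overlapped at 3 of the 6 and Col1a1 was lower in MEC1 mice. The part of these other cells in any Rab value was not tested, and in such a preparation fewer cells of a type and less RNA per cell cannot be told apart. The B lineage markers Ms4a1 and Pax5 were detected on 0 arrays, while Cd79b was detected on all and had means of 8.87 and 8.86 in control and MEC1 mice. Of the T and NK markers, Cd3e, Cd3g and Ncr1 were detected on 0 arrays and Klrb1c on 2 control arrays and 1 MEC1 array. Cd3d was detected on all, with means of 7.37 and 7.64. The plasmacytoid dendritic cell markers Siglech, Bst2 and Tcf4 were detected on all arrays.

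Detection differed between the Rab probes. Of the 112 probes, 53 were detected on all 6 arrays, against 12846 of all 45281 probes on the array. Of the rest of the 112, 10 were detected on 3 to 5 arrays, 5 on 1 or 2, and 44 on 0 arrays. The 63 probes detected on at least 3 arrays were tested, and they stand for 40 genes. The 19 genes with no tested probe were Rab2b, Rab6b, Rab19, Rab30 and Rab33a of the endoplasmic reticulum and Golgi group, Rab5b and Rab20 of the early endosome and phagosome group, Rab17 and Rab25 of the recycling group, and Rab9b, Rab34 and Rab39 of the late endosome group, with Rab3b, Rab3c, Rab26 and Rab27b of the granule group and Rab23, Rab40b and Rab42. Among them Rab5b was detected on 2 control arrays, Rab20, known from phagosomes, on 1 array of each group, and Rab26 on 1 MEC1 array. The other 16 of the 19 were detected on 0 arrays, which says that their probes were not above background, not that the genes were silent. No Rab probe was detected on all arrays of 1 group and on 0 of the other.

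Levels below are log2 intensities after background correction and quantile normalization (neqc). The difference is the MEC1 mean minus the control mean with its moderated standard error (SE), and the adjusted p comes from limma over all 16460 tested probes. Probes of a gene are numbered from the brightest, and brightness is not compared between probes, since probes differ in how they bind. Precision is limited by having 3 arrays a group.

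Rab33b fell in MEC1 mice and was the only 1 of 63 Rab probes to pass the test. This is 1.59% of the Rab probes, against 1.54% of all tested probes that passed in either direction and 0.668% that passed and were lower. Under median scaling, which moved the median of all tested probes from -0.02 to -0.48, 9 of 63 Rab probes passed. So did 2111 of all 16460 tested probes. Groups did not overlap for 18 Rab probes, or 28.6%, against 27.7% of all tested probes. Of these 18, 8 were higher in MEC1 mice (12.7%, against 14.4% of all) and 10 were lower (15.9%, against 13.3% of all). An unadjusted p under 0.05 was seen for 13 Rab probes, or 20.6%, against 19.8% of all. The median log2 difference was -0.05 over the Rab probes and -0.02 over all tested probes, and 46 of the 63, or 73.0%, lay within 0.5 log2 units of 0, against 72.0% of all. Apart from the lower calls, where a single probe sets the Rab share, each of these shares lies near the share over all probes.

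**Figure D1:**
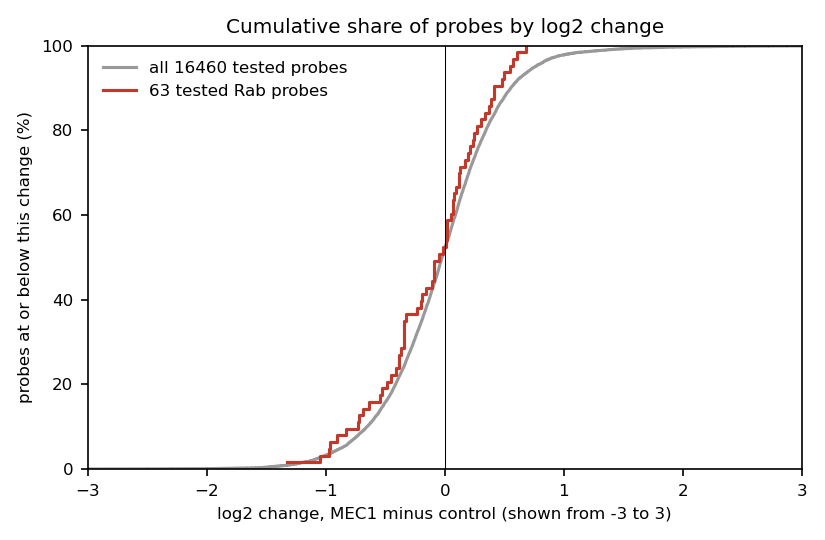
The x axis gives the log2 difference, MEC1 minus control, from -3 to 3, and the y axis the percentage of probes at or below it, for the 63 tested Rab probes (red steps) and all 16460 tested probes (grey line). The curves run close together around medians of -0.05 and -0.02, no Rab probe lies outside the range from -1.33 to 0.68, and 19 of all probes lie beyond the axis.

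In endoplasmic reticulum and Golgi traffic, 7 genes were tested by 14 probes, of which 1 passed, with a median log2 difference of -0.26. This median is over probes, so that Rab6a counts 4 times and Rab1b 3 times. It includes probe 1 of Rab1b and probes 1 and 3 of Rab6a, which were low in mouse D alone, as described further on. A shift of the group was not tested. Rab33b, a Golgi Rab that also binds the autophagy protein Atg16l1, lay at 8.90, 8.84 and 8.88 in mice A to C, the controls, and at 7.76, 7.35 and 7.53 in mice D to F. Control mice lay within 0.1 of each other, and each MEC1 mouse was more than 1 log2 unit below each of them. The log2 difference was -1.33 ± 0.21 (SE; adjusted p = 0.0257), or 2.51-fold lower. The call was kept without mouse D and lost without any 1 of the other mice. The adjusted p was 0.169, 0.174 and 0.184 without control mouse A, B or C, 0.0742 without mouse E, 0.0591 without mouse F and 0.00396 without mouse D, while the difference stayed between -1.41 and -1.23. Rab33b had a single probe on the array, so no second probe could be set beside it, and its close relative Rab33a was detected on 0 arrays.

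Rab18, which is found on the endoplasmic reticulum and on lipid droplets, gave 9.41, 9.67 and 9.50 in control mice and 8.43, 8.83 and 9.16 in MEC1 mice. The groups did not overlap, and the difference of -0.72 ± 0.22 (SE) did not pass (adjusted p = 0.142). Rab1a and Rab1b, which drive vesicles from the endoplasmic reticulum to the Golgi, had 1 probe each with MEC1 mice above control mice. Probe 1 of Rab1a gave 9.87, 9.93 and 9.57 against 10.004, 10.21 and 10.16, a difference of 0.34 ± 0.17 (SE; adjusted p = 0.306), while probe 2 gave -0.19. Probe 2 of Rab1b gave 7.45, 7.13 and 6.79 against 7.72, 7.57 and 7.54, a difference of 0.48 ± 0.26 (SE; adjusted p = 0.33). Its probe 3 gave -0.02 and its probe 1 was split within the MEC1 group, as described further on. Rab6a, which acts in transport from the Golgi back to the endoplasmic reticulum, had 4 tested probes with differences of -0.54 to -0.15. Groups did not overlap at its probe 2 alone, at 8.30, 8.19 and 8.16 against 8.03, 7.90 and 7.71 (adjusted p = 0.397). Rab2a, which acts between the endoplasmic reticulum and the Golgi, gave 11.35, 11.27 and 11.22 against 11.18, 11.04 and 11.30, and here the groups overlapped. Rab43 gave -0.45 and 0.06 at its 2 probes.

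For early endosomes and phagosomes, 5 genes were tested by 8 probes, none of which passed, with a median log2 difference of 0.11. Rab5a, Rab5b and Rab5c encode the Rabs that bring early endosomes to fuse. Rab5c gave 11.53, 11.75 and 11.70 in control mice and 11.76, 12.59 and 12.14 in MEC1 mice. Mouse D exceeded the highest control mouse only narrowly, and the difference was 0.50 ± 0.20 (SE; adjusted p = 0.215). Without mouse D it was 0.70 ± 0.16 (SE; adjusted p = 0.0325), and without mouse E it was 0.29 (adjusted p = 0.392). Under median scaling Rab5c gave 0.07 with all mice. Rab5a gave -1.05 ± 0.47 (SE; adjusted p = 0.27) at its brightest probe, where it was -0.46 (adjusted p = 0.126) without mouse D, and gave -0.05 at probe 2 and -0.53 at probe 3. Rab31, which carries cargo from the Golgi to endosomes, gave 11.90, 11.95 and 11.67 against 12.15, 12.07 and 11.68, with groups that overlapped. Rab21 and the 2 probes of Rab22a, both of endosomes, had differences of 0.10, 0.12 and 0.17.

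In the recycling group, 7 genes were tested by 9 probes, none of which passed, with a median log2 difference of 0.01. Rab4b, a Rab of rapid recycling from early endosomes, gave 8.52, 8.64 and 8.53 in control mice and 9.16, 9.50 and 9.08 in MEC1 mice. Each MEC1 mouse lay above each control mouse, and the difference of 0.68 ± 0.20 (SE) did not pass (adjusted p = 0.125). Its relative Rab4a gave -0.09 ± 0.30 (SE). Rab11b, a Rab of recycling endosomes, gave 13.49, 13.36 and 13.34 against 12.88, 12.95 and 13.20 at its bright probe. The difference there was -0.38 ± 0.11 (SE; adjusted p = 0.13), and its dim probe gave 0.07 ± 0.42 (SE). Rab11a gave 7.28, 7.77 and 7.77 against 5.99, 6.51 and 7.39, a difference of -0.98 ± 0.37 (SE; adjusted p = 0.2), with mouse F inside the control range. Rab14, which works between the Golgi and endosomes, differed between its probes. Probe 1 gave 12.01, 11.76 and 11.62 against 11.78, 11.71 and 11.98, a difference of 0.02 ± 0.15 (SE). Probe 2 gave 8.73, 7.97 and 8.24 against 7.38, 7.66 and 7.39, a difference of -0.83 ± 0.26 (SE; adjusted p = 0.144). Rab35 gave 0.01 ± 0.14 (SE) and Rab15, detected on 3 arrays, 0.57 ± 0.33 (SE).

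For late endosomes and lysosomes, 8 genes were tested by 13 probes, none of which passed, with a median log2 difference of 0.07. Rab24, a Rab linked to autophagy, gave 10.80, 10.69 and 10.75 in control mice and 11.17, 11.18 and 11.05 in MEC1 mice at its brightest probe. Probe 2 gave 10.54, 10.42 and 10.47 against 11.00, 10.87 and 10.68. Groups did not overlap at either, and the differences were 0.39 ± 0.14 and 0.38 ± 0.15 (SE; adjusted p = 0.175 and 0.216). Probe 3 gave 0.42 ± 0.25 (SE; adjusted p = 0.377) with groups that overlapped. Under median scaling probes 1 and 2 gave -0.11 and -0.14, where the median of all tested probes was -0.48. Rab7, which directs late endosomes and phagosomes to lysosomes, gave 11.69, 11.70 and 11.79 against 11.89, 12.08 and 11.84 at its brightest probe. Each MEC1 mouse was above the controls there, by a mean of 0.21 ± 0.13 (SE; adjusted p = 0.377).

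Rab36 gave 6.61, 6.34 and 6.26 in control mice and 5.99, 5.11 and 5.40 in MEC1 mice, of which 1 array detected it. The difference of -0.90 ± 0.29 (SE; adjusted p = 0.146) is thus measured mostly against undetected signal. The detecting array was that of mouse D. Without it the fit passed Rab36 (adjusted p = 0.0217) with 0 MEC1 arrays above background, so the size of the difference is then not measured. Rab12, which sends the transferrin receptor to degradation, gave 7.67, 7.29 and 7.38 against 6.06, 7.22 and 6.89, a difference of -0.73 ± 0.34 (SE; adjusted p = 0.269). Mouse E came within 0.1 of the lowest control mouse, and without mouse D the difference was -0.39 (adjusted p = 0.354). Rab29, a Rab linked to the kinase Lrrk2, gave 0.07 ± 0.17 (SE), Rab7b 0.31 ± 0.47 (SE) and Rab39b 0.42 ± 0.28 (SE). The 2 probes of Rab9, which retrieves mannose 6-phosphate receptors to the Golgi, gave -0.36 and -0.69.

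For secretory granules and lysosome-related organelles, 7 genes were tested by 8 probes. Groups overlapped at all 8, and likewise at 11899 of all 16460 tested probes. The median log2 difference of the 8 Rab probes was 0.05. Rab27a, which docks secretory lysosomes and granules, gave 12.77, 12.47 and 12.30 in control mice and 12.54, 12.43 and 12.30 in MEC1 mice, a difference of -0.09 ± 0.14 (SE). Rab32, a Rab of lysosome-related organelles, gave 12.70, 12.63 and 12.31 against 12.64, 12.57 and 12.47, a difference of 0.02 ± 0.13 (SE). Rab3d, a Rab of secretory granules, gave 0.02 ± 0.15 (SE) and Rab38, the close relative of Rab32, 0.24 and 0.25 at 2 probes. Rab37, a granule Rab, gave 0.08 ± 0.29 (SE) and Rab3a, known from synaptic vesicles, -0.20 ± 0.31 (SE). Rab44, a large Rab known from mast cell granules, was split within the MEC1 group. It gave 8.77, 8.64 and 8.63 in control mice and 10.06, 9.44 and 8.36 in mice D, E and F, so that 2 MEC1 mice lay above and 1 below all controls (0.61 ± 0.38, SE; adjusted p = 0.404).

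For polarised exocytosis, cilium and junctions, 5 genes were tested by 10 probes, none of which passed, with a median log2 difference of -0.21. Rab8a and Rab8b, near relatives that carry cargo from the Golgi to the plasma membrane, lay on opposite sides of 0. Rab8b gave 13.00, 12.93 and 12.89 in control mice and 12.60, 12.46 and 12.61 in MEC1 mice at probe 1, and 11.99, 11.94 and 11.99 against 11.79, 11.51 and 11.65 at probe 2. Both probes kept the groups apart, with differences of -0.39 ± 0.10 and -0.33 ± 0.13 (SE; adjusted p = 0.114 and 0.209). Rab8a gave 12.51, 12.53 and 12.58 against 12.72, 12.66 and 12.61 at probe 1, a difference of 0.12 ± 0.10 (SE; adjusted p = 0.528), and 0.54 ± 0.22 (SE; adjusted p = 0.218) at probe 2. Under median scaling probe 1 of Rab8a gave -0.23. The difference between Rab8a and Rab8b was not tested. Rab28 gave 11.73, 12.04 and 11.77 against 11.65, 11.13 and 11.73 at probe 1, and its 3 probes gave -0.34, -0.34 and -0.35 with groups that overlapped. Rab10 gave -0.09 and 0.27 at 2 probes and Rab13 0.20. The only tested member of the ubiquitin ligase type, Rab40c, gave -0.24 ± 0.26 (SE).

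**Figure D2:**
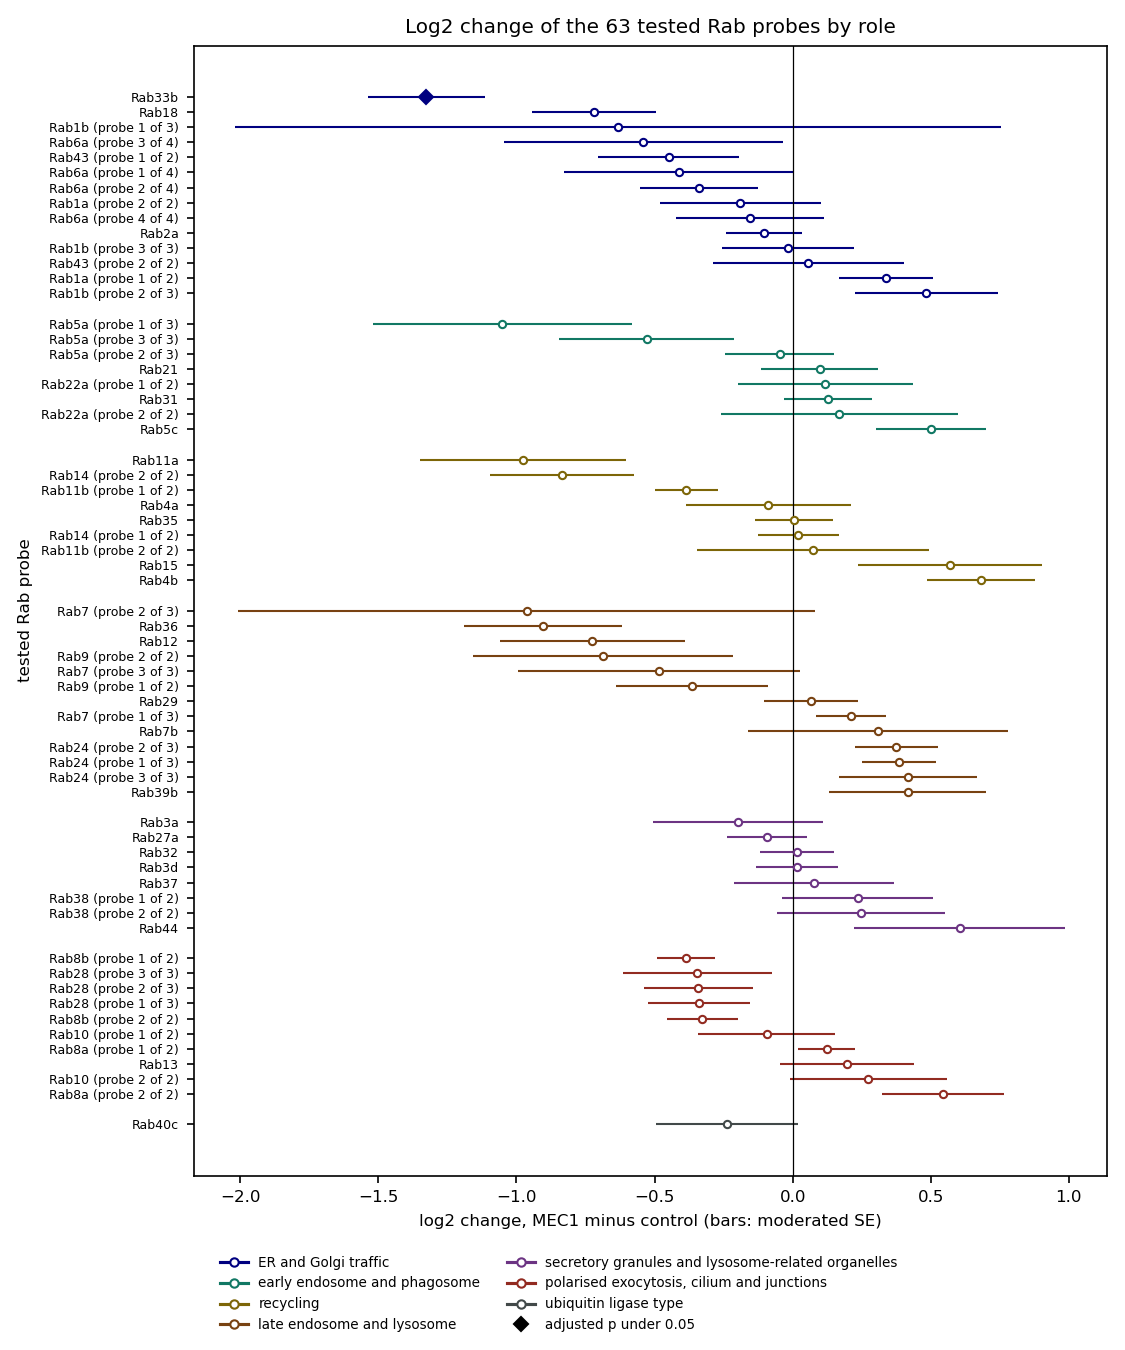
Each point is 1 tested Rab probe at its log2 difference, MEC1 minus control (x axis), with its moderated SE as a bar, grouped and coloured by role. The only filled diamond, an adjusted p under 0.05, is Rab33b at -1.33, and the widest bars are those of Rab1b probe 1 and Rab7 probe 2.

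**Figure D3:**
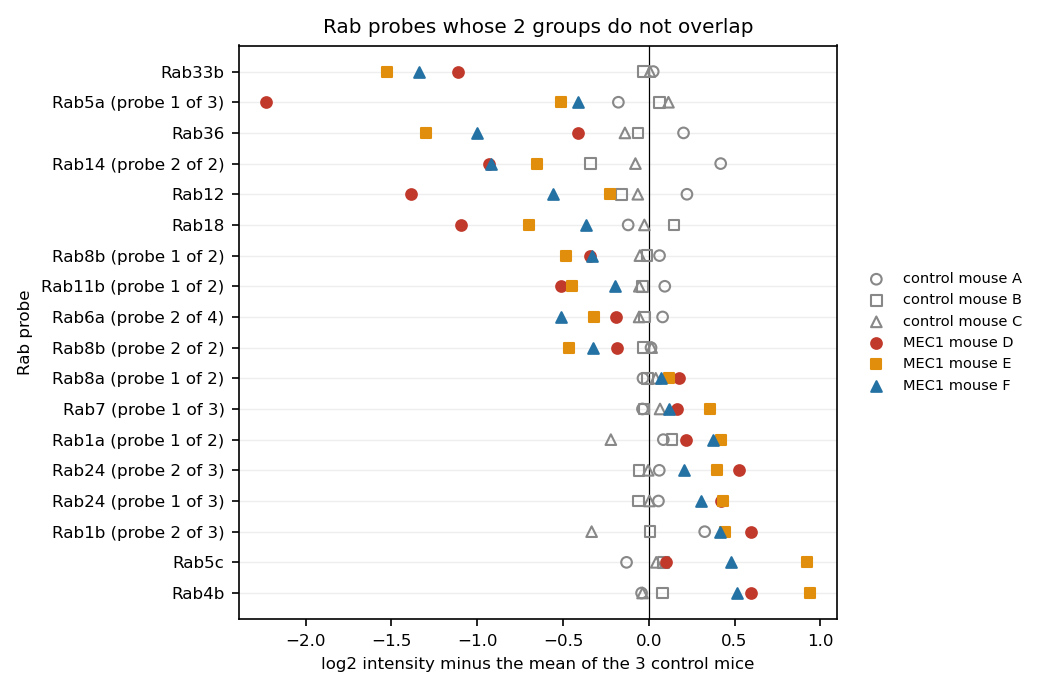
Rows are the 18 Rab probes whose groups do not overlap, and the x axis is the log2 intensity of each mouse minus the control mean (open grey symbols for control mice, filled coloured symbols for MEC1 mice). Rab33b has the 3 control mice close to 0 and the 3 MEC1 mice more than 1 unit below, while at Rab5a probe 1 mouse D lies far from mice E and F.

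MEC1 mice differed more from each other than control mice did. The SD of the 3 MEC1 mice was the larger one at 50 of 63 Rab probes, or 79.4%, against 76.1% of all tested probes, and the median SD over Rab probes was 0.33 in MEC1 and 0.17 in control mice. Mouse D stood apart at single probes. At 8 Rab probes of 5 genes it lay more than 1 log2 unit below both other MEC1 mice, which is 12.7% of Rab probes against 6.87% of all tested probes. At 3 Rab probes it lay more than 1 unit above them. Mice E and F were that far below their group at 0 and 2 Rab probes, and control mice at 0.

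The low values of mouse D belonged to certain probes of a gene and not to the others. Probe 1 of Rab1b gave 9.92, 10.05 and 10.23 in control mice, 6.38 in mouse D, and 11.39 and 10.55 in mice E and F. At probe 2 of Rab1b mouse D was the highest of the 6 mice. Probe 2 of Rab7 gave 8.91, 9.05 and 9.40 in control mice, 5.72 in mouse D, where it was not detected, and 9.50 and 9.26 in mice E and F. At the brightest probe of Rab7 mouse D gave 11.89, above all 3 controls. Probe 1 of Rab5a gave 10.53, 10.77 and 10.82 in control mice, 8.47 in mouse D, and 10.19 and 10.29 in mice E and F, while at probe 2 mouse D gave 8.63, above all 3 controls. Probe 3 of Rab7 and probe 3 of Rab5a also dropped in mouse D, to 6.11 and 7.41. Rab6a showed the drop in mouse D at probes 1 and 3, to 7.53 and 6.37, and Rab9 at probe 2, to 5.69. Where the probes lie along their transcripts was not analysed here. At Rab1b and Rab7 the sign of the group difference therefore depends on which probe is read. At Rab5a, Rab6a and Rab9 each tested probe gave a difference below 0, and the size varied. It ran from -1.05 to -0.05, from -0.54 to -0.15 and from -0.69 to -0.36.

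**Figure D4:**
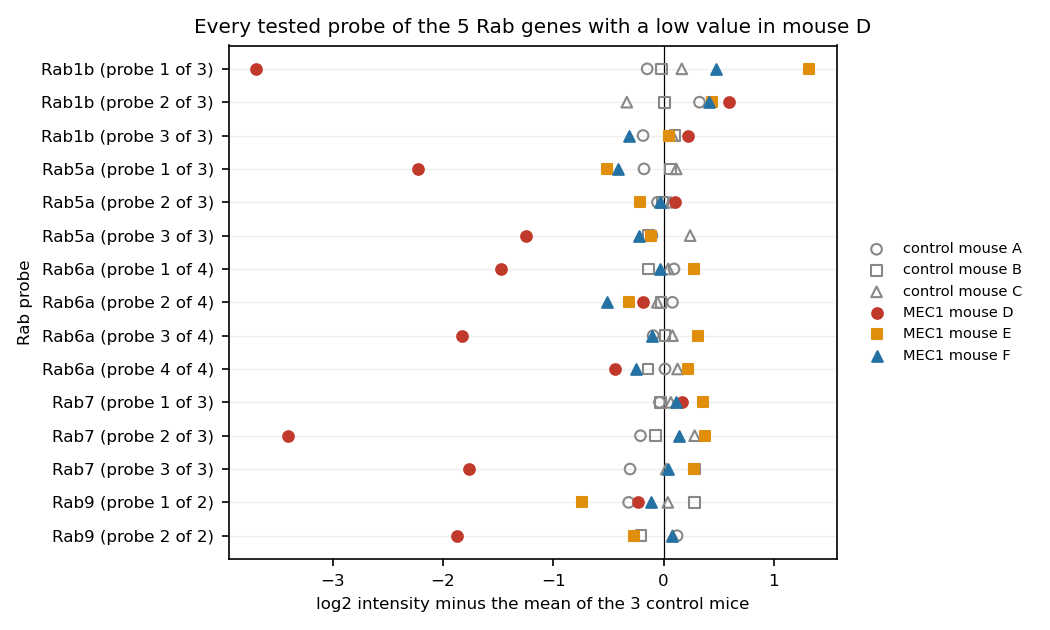
Rows are all tested probes of Rab1b, Rab5a, Rab6a, Rab7 and Rab9, and the x axis is the log2 intensity of each mouse minus the control mean. Mouse D (red circles) lies at -3.69 to -1.25 at 8 probes and less than 1 unit below the other MEC1 mice at the remaining probes of these genes.

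More than 1 tested probe was at hand for 16 genes. Their differences had 1 sign in 9 genes and mixed signs in 7, and they spread over more than 0.5 log2 units in 6. In no gene did the probes exceed 0.5 on both sides of 0. Rab8b, Rab22a, Rab24, Rab28 and Rab38 each had probes within 0.1 of each other, and Rab8b was the only gene whose tested probes all kept the groups apart in 1 direction. The other 24 genes, Rab33b among them, had 1 tested probe.

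Without mouse D, 3 of 61 tested Rab probes passed, those of Rab33b, Rab36 and Rab5c, against 6.84% of all tested probes. Rab36 entered this test only through the control arrays that detected it. The filter thus favoured a lower MEC1 value in advance, and its pass is not counted as support. Rab33b was then at -1.41 ± 0.20 (SE; adjusted p = 0.00396). At the probes with the low value in mouse D, Rab7 then gave 0.26 and 0.15 in place of -0.96 and -0.48. Rab6a gave 0.12 and 0.10 in place of -0.41 and -0.54, and Rab9 -0.094 in place of -0.69. Rab5a gave -0.46 and -0.17 at probes 1 and 3, in place of -1.05 and -0.53. Rab1b probe 1 turned from -0.63 with all mice to 0.89 ± 0.24 (SE; adjusted p = 0.052) and Rab4b gave 0.72 ± 0.21 (SE; adjusted p = 0.0645).

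Genes that run the Rab cycle were read from the same fit with 1 probe per gene, the brightest tested one. Of 97 tested genes none passed in limma, against 1.74% of all 9089 genes read in the same way. An unadjusted p under 0.05 was seen for 12 of the 97, or 12.4%, against 21% of all genes. Their median log2 difference was -0.02. Among 31 exchange factors, Mon1a, part of the complex that loads Rab7, gave 1.27 ± 0.29 (SE; adjusted p = 0.077). Rin2, which acts on Rab5, gave -1.004 ± 0.25 (SE; adjusted p = 0.0897), and Hps1, part of the exchange factor of Rab32 and Rab38, gave 1.01 ± 0.26 (SE; adjusted p = 0.103). Groups did not overlap at any of these 3. Vps41, a subunit of the tether that acts with Rab7, gave -1.11 (adjusted p = 0.0703) at its dimmer probe, which only 1 MEC1 array detected, and 0.16 at its brighter one.

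Among 27 GTPase-activating proteins the smallest p-values were those of Evi5 at -0.87 ± 0.25 (SE; adjusted p = 0.128), Tbc1d7 at 0.62 ± 0.21 (SE; adjusted p = 0.166) and Usp6nl at -0.75 ± 0.26 (SE; adjusted p = 0.174). Among 33 effectors they were those of Rilpl2 at -0.81 ± 0.25, Plekhm1, which links Rab7 to lysosome fusion, at -0.71 ± 0.26, and Plekhm2 at -0.32 ± 0.18 (SE; adjusted p = 0.142, 0.188 and 0.334). The 6 tested genes of prenylation and membrane extraction lay between -0.33 and 0.13, with Rabggtb, a subunit of the enzyme that adds the lipid tail, at -0.33 ± 0.16, Pde6d at 0.13 ± 0.15 and Gdi2, which draws Rabs off membranes, at -0.27 ± 0.63 (SE; adjusted p = 0.293, 0.663 and 0.832). At Gdi2 mouse D gave 5.83, against 8.27 and 7.98 in mice E and F, and without mouse D the difference was 0.49 ± 0.29 (SE; adjusted p = 0.308).

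Without mouse D, 9 of 96 of these genes passed, or 9.38%, against 7% of all genes read by 1 probe. Mon1a at 1.48 ± 0.26 and Tbc1d14 at 1.42 ± 0.30 (SE; adjusted p = 0.00918 and 0.0196) were then higher. Rin2 at -1.26 ± 0.19 (SE; adjusted p = 0.00429), Rilpl2, Evi5, Dennd2a, Plekhm1, Fyco1 and Rabgef1 were then lower. At Tbc1d14, Fyco1 and Dennd2a the mouse left out did not go with mice E and F. Mouse D lay below all controls at Tbc1d14 (5.15), above them at Fyco1 (7.89) and inside their range at Dennd2a (7.06). With all mice these genes gave 0.69, -0.60 and -0.78 (limma adjusted p = 0.537, 0.46 and 0.267). Groups did not overlap at the other genes with all mice.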

How the data were processed

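RNA from 6 mice, 3 control and 3 MEC1, was hybridised to an Illumina mouse bead array in 1 colour, with 1 array per mouse and all arrays on 1 chip, per the labels' protocols. The deposited table of unnormalized values gives, for each probe and array, the mean intensity and a detection p-value, per the file headers. GenomeStudio is named in the submitters' processing notes, and no version is given there. The second deposited table holds processed intensity values with nearly the same quantiles in each column, and it served as an alternative.

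Intensities were corrected and quantile-normalized with neqc (offset 16) in limma 3.58.1 under R 4.3.3. The 16460 probes detected (p-value under 0.05) on 3 or more arrays were fitted with a group term, lmFit and eBayes (trend, robust), with two-sided p-values adjusted by Benjamini-Hochberg over all of them. An adjusted p under 0.05 is a pass. The offset shrinks differences of dim probes. The fit alone was tested on simulated data, with the same spread in both groups. Correction, normalization and the detection filter were not tested in this way.

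Probe names come from the platform annotation, updated through Entrez IDs (34807 of 34885 named probes). Genes of the Rab cycle were 124 by list, of which 7 were not used here and 117 matched. Role groups place each Rab once, though many act at several sites. Named Rab probes are those that passed, the largest differences without overlap, and the 8 brightest genes; others were named after their values were seen. The members and lists were chosen with earlier results of these data known. Each array is a separate mouse, and p-values weigh the group difference against the moderated spread of these 6 samples within their groups. Control arrays took the first positions of the chip and MEC1 arrays the last, so that position and group cannot be told apart.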

Additional observations from a re-analysis of the deposited data

How the results depend on the processing

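No paired analysis was possible because the mice carry letters that the groups do not share. Rab33b kept its direction under all 12 alternatives and its call under median scaling, no background correction, the series matrix values, both other filters on dim probes and plain eBayes. Leaving out 1 mouse at a time gave 0 to 3 Rab probes that passed, 4 to 1094 of all tested probes and 0 to 9 other genes of the Rab cycle, the highest of each without MEC1 mouse D. Plain eBayes passed 95 of all tested probes. Median scaling, instead of quantile normalization, passed 9 Rab probes (of Rab5a, Rab9, Rab11a, Rab12, Rab14, Rab18, Rab33b and Rab36), 2111 of all probes (130 higher and 1981 lower, against 143 and 110), and 10 other genes of the cycle. It moved the Rab median to -0.48 and that of all tested probes to -0.48 as well, so the Rab probes did not shift against the rest. Under it the differences of Rab1b probe 2, both non-overlapping Rab24 probes, Rab1a probe 1, Rab7 probe 1 and Rab8a probe 1 turned to -0.076, -0.11, -0.14, -0.21, -0.24 and -0.23, and those of Rab32, Rab31 and Rab14 probe 1 to -0.35, -0.32 and -0.44; the cause was not tested. Values near 0 also changed sign without 1 mouse: Rab32 ranged from -0.10 to 0.10, Rab27a from -0.20 to 0.035 and Rab14 probe 1 from -0.067 to 0.13. Of 275 values of named probes under the alternatives, 249 kept their direction and side of the threshold, 5 lost the call, 7 gained it and 14 changed sign. Signal over background limits the 49 Rab probes that were not tested.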
